A study of Mus musculus with 8 samples.

Results

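The transcripts of 8 genes that move glutamate, GABA and glutamine in the cortex were compared between bigenic ΔNLS-hTDP-43 mice and nontransgenic mice. They are the vesicular glutamate transporters Slc17a6 and Slc17a7, the plasma membrane glutamate transporters Slc1a1, Slc1a2 and Slc1a3, the GABA transporter Slc6a11, the glutamine transporter Slc38a1 and glutamine synthetase, Glul. They were chosen by gene symbol, and each symbol was found on 1 row, so that 8 of the 28662 transcripts in the deposited table are described. All 8 reached 10 RPM in 1 or more of the mice and were tested in a fit of 10588 genes that did so.

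The bigenic mice (n = 4, 3 male) carried a Camk2a-tTa transgene and a tetracycline-responsive human TDP-43 with a mutated nuclear localization signal (deltaNLS-hTDP-43), on a C57BL/6 background. The Camk2a promoter drives the transactivator mainly in excitatory neurons of the forebrain. Doxycycline in the diet kept the transgene off until 28 days of age, and right cortex was taken 10 days after it was removed. The controls were 4 mice with neither transgene (nontransgenic, 3 male) born to heterozygous carriers, and they too had doxycycline until 28 days of age and none for the last 10. No group with a single transgene was analysed here. Each library was made from poly(A)+ RNA of a separate mouse.

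Glutamate released at a synapse is loaded into vesicles by the vesicular transporters Slc17a7 (VGLUT1), the main form in cortical neurons, and Slc17a6 (VGLUT2), the main form in thalamus and other subcortical regions. It is cleared mostly by astrocytes through Slc1a2 (GLT-1) and Slc1a3 (GLAST), converted by Glul into glutamine, exported, and taken up by neurons through carriers such as Slc38a1 (SNAT1), where it is turned back into glutamate. Slc1a1 (EAAC1) takes up glutamate into neurons, and Slc6a11 (GAT3) takes up GABA into astrocytes.

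The values were whole numbers that the authors had scaled per mouse, and they are called normalized counts here. Column totals lay between 20125748 and 21980950, and 1 read was worth between 0.648 and 2.07 normalized counts, so that the libraries differed in depth. The shallowest library was that of the second bigenic mouse, in which 3 reads correspond to 6.20 normalized counts. Such limits cover counting error only. Values are given below for the 4 mice of a group in the column order of the table, in which a column names a group but not a replicate number. The second bigenic mouse also stood apart from the other 3 in these genes, as the lowest of the 4 in 5 of the 8 and the highest in 2. The endogenous mouse Tardbp had a mean of 5180 normalized counts in the bigenic mice, against 6538 in the nontransgenic mice (limma adjusted p-value = 0.00645). Cortical neuron markers were present, with 11 of 12 listed excitatory neuron genes measured, among them Tbr1 and Neurod6. Markers of choroid plexus, which is not cortex, were also present and differed between the groups. The 4 of 13 such markers that were measured, Ttr, Kl, F5 and Clic6, summed to between 8385 and 19459 normalized counts in bigenic cortex and to between 363 and 1203 in nontransgenic cortex. Folr1, Kcne2, Aqp1 and Otx2 were among the 9 not found by symbol. The first bigenic mouse stood apart in 9 striatal markers, which summed to 14266 normalized counts in it, to between 5957 and 6171 in the other 3 bigenic mice and to between 7149 and 10647 in the nontransgenic mice. Among these markers, Adora2a had 640 in that mouse against 19, 110 and 73 in the other 3, and Drd2 had 246 against 6, 48 and 28. When that mouse was left out, the log2(fold changes) of Slc17a6 (-1.37), Slc6a11 (-0.45) and Slc38a1 (0.453) still passed the threshold in limma, and those of Glul (-0.43) and Slc1a2 (-0.24) did not. With all 8 mice Glul was at -0.40 and Slc1a2 at -0.25. Both also lost the call when any 1 of the nontransgenic mice was left out. The part of choroid plexus or striatal tissue in the values below was not tested.

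TDP-43 binds UG-rich RNA, so runs of TG repeated at least 6 times were counted on the coding strand of each gene, from start to end in the mm9 genome. Slc17a6 held 9 such runs, Slc17a7 held 1, Slc1a1 held 7, Slc1a2 held 18, Slc1a3 held 4, Slc6a11 held 5, Glul held 1 and Slc38a1 held 13. On the opposite strand the same genes held 4, 0, 7, 6, 6, 13, 0 and 2. Such runs are common. Of all tested genes found in the annotation, 73.7% held at least 1 on the coding strand, and the share was between 45.2% and 100% among genes of similar length to each of the 8 (at most 25% longer, or shorter by the same factor). Per 10 kb of gene, Slc17a6 (1.83) and Slc38a1 (1.82) held the most of the 8, beside a median of 0.771 over all genes. Runs in exons were found in Slc1a2 and in none of the other 7. The longer of its 2 lies in the 3’ UTR of the long transcript and spans 44 bases. Of all genes tested, 11.2% had a run in an exon, as did 29.1% of 444 genes with as much exon sequence as Slc1a2. The windows below, with the last bases of the run in capitals and the bases after it in lower case, are shown because these genes had the most runs per length (Slc17a6 and Slc38a1), a run in the mature mRNA (Slc1a2) and a single short run (Glul).
Slc17a6, intron, chr7:58878308-58878337, plus strand: TGTGTGTGTGTGTGTGTGTGattttgtttc
Slc38a1, intron, chr15:96447829-96447858, minus strand: TGTGTGTGTGTGTGTGTGTGtatgtcttcg
Slc1a2, 3’ UTR, chr2:102622352-102622381, plus strand: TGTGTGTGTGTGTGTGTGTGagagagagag
Glul, intron, chr1:155748474-155748503, plus strand: atgctggaTGTGTGTGTGTGgggggcgggg
These matches describe the sequence, and no binding was measured.

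In the bigenic mice 4 of the 8 transcripts were significantly lower (Slc17a6, Slc6a11, Glul and Slc1a2), 1 was significantly higher (Slc38a1) and 3 did not pass the threshold (Slc1a3, Slc1a1 and Slc17a7). The vesicular transporter Slc17a6 had the largest difference of the 8, and Slc17a7 had no significant one. The share of all genes called by the same test was 35.9%, with 20.5% higher and 15.4% lower; the 5 of 8 have to be read against this background. The median log2(fold change) of the 8 was -0.24, against 0.03 over all genes tested. Only Slc17a6, Slc6a11, Glul and Slc38a1 had groups that did not overlap, beside 39.0% of all genes. The number called was 6 without the second bigenic mouse, when Slc1a3 joined the list, fell to 2 without the second nontransgenic mouse, and was 3 without the first bigenic mouse or without the first, the third or the fourth nontransgenic mouse. In bulk cortex, fewer cells of a type and less RNA per cell cannot be told apart.

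**Figure D1:**
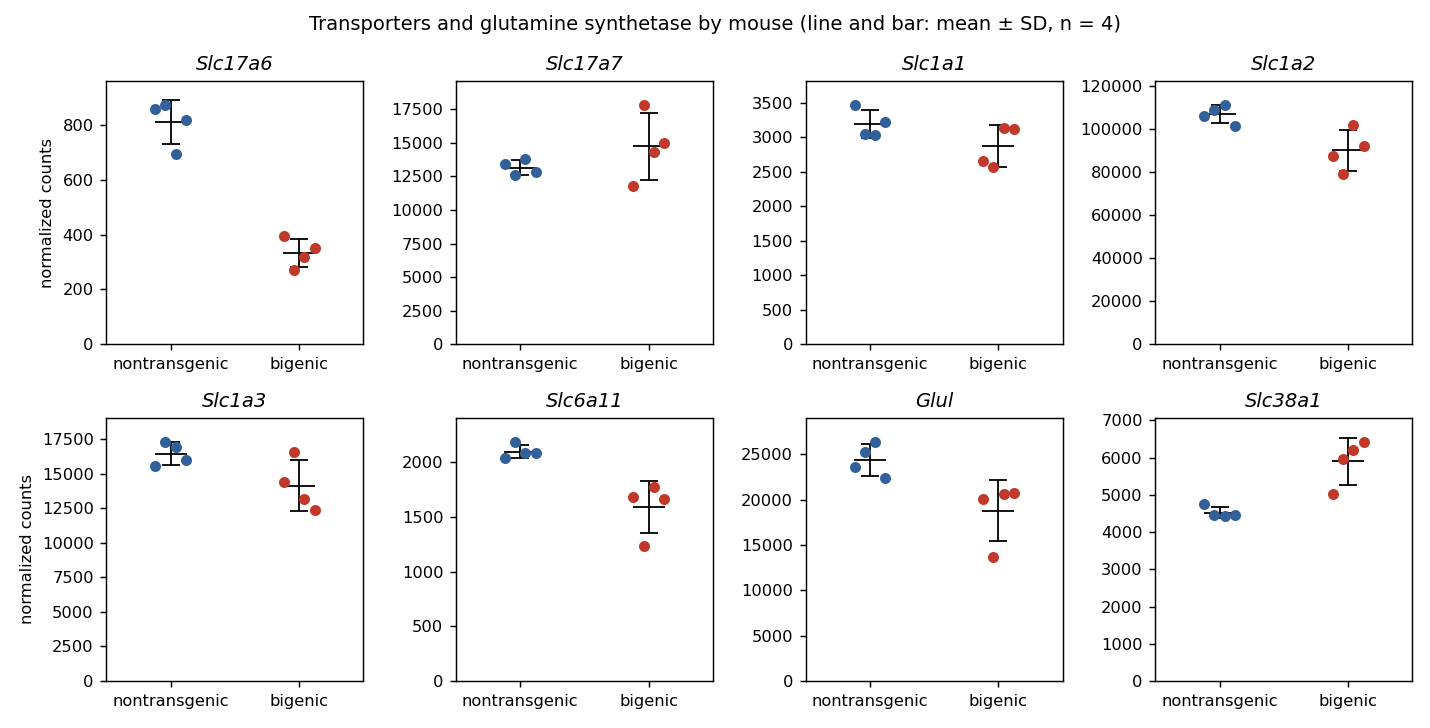
Normalized counts of the 8 genes in each mouse, with 4 nontransgenic mice in blue and 4 bigenic mice in red, and the mean ± SD in black. The vertical axes start at 0 and differ between panels. The groups are apart in Slc17a6, Slc6a11, Glul and Slc38a1 and overlap in the other 4 genes.

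Of the vesicular glutamate transporters, Slc17a6 was significantly lower and Slc17a7 was not called. Slc17a6 (uc009hcf.2, chromosome 7, 58877200 to 58926495, plus strand) had 394, 271, 320 and 350 normalized counts in bigenic cortex and 860, 874, 694 and 820 in nontransgenic cortex. All 4 bigenic mice were well below all 4 nontransgenic mice. The means were 334 ± 52 (SD, n = 4) and 812 ± 82 (SD, n = 4), a log2(fold change) of -1.29 (standard error 0.13, 95% confidence interval -1.57 to -1.01, limma adjusted p-value = 8.87e-05), or 59.0% lower. It ranked 56 among the 10588 genes from the largest fall. Slc17a6 was called in all 15 alternatives, of which 8 leave out a mouse and 7 change the pseudocount, filter, scaling or weights.

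Slc17a7 (uc009gtx.2, chromosome 7, 52419291 to 52431508, plus strand) had 11805, 17831, 14330 and 15003 normalized counts in bigenic cortex and 13454, 12605, 13786 and 12825 in nontransgenic cortex. The bigenic mice held both the lowest and the highest value of the 8 mice, so the groups overlapped. Its log2(fold change) was 0.15 (standard error 0.11, 95% confidence interval -0.10 to 0.40, limma adjusted p-value = 0.327), and it reached an adjusted p-value of 0.0483 only after quantile normalization. Within each mouse, the log2 ratio of Slc17a6 to Slc17a7 was -4.902, -6.035, -5.480 and -5.418 in bigenic cortex and -3.966, -3.849, -4.310 and -3.966 in nontransgenic cortex. The ratio was lower in every bigenic mouse, by 1.44 on average. The exact two-sided permutation test gave p = 0.0286, the smallest that 4 mice against 4 allow, and 0.0571 after adjustment over the 6 ratios compared. The adjusted value did not pass the threshold, so a difference between the 2 transporters was not established by this test. The third vesicular glutamate transporter, Slc17a8, was not among the genes with a symbol. The vesicular GABA transporter Slc32a1 was at -0.04 on the log2 scale (limma adjusted p-value = 0.721).

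Since Slc17a6 is abundant in thalamus, a list of 11 thalamic genes was read beside it. A value was present for 5, while Tcf7l2, Lef1, Gbx2, Zic1, Tnnt1 and Ramp3 were not among the genes with a symbol in the table. Prkcd and Plekhg1 were lower, with log2(fold changes) of -0.43 and -0.34 (limma adjusted p-values of 0.0331 and 0.0474), Rora was higher by 0.69 (limma adjusted p-value = 0.00233), and Ntng1 and Rgs16 were not called. The 5 genes summed to between 1934 and 2581 normalized counts in bigenic cortex and to between 2253 and 2524 in nontransgenic cortex. These overlapping sums mix rises and falls, since they include Rora, with means of 868 in bigenic and 540 in nontransgenic cortex. The part of subcortical tissue in the difference was not tested. Among the genes whose values over the 8 mice were most like Slc17a6 was Pcdh19 (Pearson r = 0.994), a protocadherin. These correlations are descriptions that contain the difference between the groups.

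Of the 4 genes known from astrocytes, Slc6a11, Glul and Slc1a2 were significantly lower and Slc1a3 did not pass. Slc6a11 (uc009dhs.1, chromosome 6, 114081235 to 114199880, plus strand) had 1681, 1235, 1771 and 1664 normalized counts in bigenic cortex and 2039, 2187, 2080 and 2082 in nontransgenic cortex. The groups did not overlap, and the second bigenic mouse was the lowest. The means were 1588 ± 240 and 2097 ± 63 (SD, n = 4 each), a log2(fold change) of -0.41 (standard error 0.11, 95% confidence interval -0.66 to -0.17, limma adjusted p-value = 0.0167). Without the second nontransgenic mouse the adjusted p-value was 0.0524, and Slc6a11 was called in the other 14 alternatives.

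Glul (uc007daq.1, chromosome 1, 155747074 to 155756853, plus strand) had 20013, 13718, 20562 and 20746 normalized counts in bigenic cortex and 23559, 25260, 26386 and 22375 in nontransgenic cortex. Every bigenic mouse was below every nontransgenic mouse, and the second bigenic mouse lay far below the other 3. Means of 18760 ± 3376 and 24395 ± 1779 (SD, n = 4 each) gave a log2(fold change) of -0.40 (standard error 0.13, 95% confidence interval -0.69 to -0.10, limma adjusted p-value = 0.0401). Without the second bigenic mouse it was -0.25 and still called. The call was lost without the first bigenic mouse (adjusted p-value = 0.0515) and without any of the nontransgenic mice (0.0514 to 0.108). Of the 50-base windows in Glul exons, 90.4% occur once in the genome, so part of its reads may not have been counted, which was not tested. Its exons overlap 5830403L16Rik on the opposite strand.

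Slc1a2 (uc008lib.2, chromosome 2, 102498816 to 102630941, plus strand) had 87543, 78858, 101564 and 92140 normalized counts in bigenic cortex and 105978, 108756, 111078 and 101337 in nontransgenic cortex. The third bigenic mouse lay just above the lowest nontransgenic mouse, and the other 3 bigenic mice lay below the whole control group. The bigenic mean of 90026 ± 9460 and the control mean of 106787 ± 4189 (SD, n = 4 each) differed by -0.25 on the log2 scale (standard error 0.08, 95% confidence interval -0.44 to -0.07, limma adjusted p-value = 0.0389). The call was kept only when the second or the third bigenic mouse was left out. It was lost without the first or the fourth bigenic mouse (adjusted p-values of 0.0788 and 0.0643) and without any of the nontransgenic mice (0.0525 to 0.106). Exons of Slc1a2 overlap Gm13872 on the opposite strand.

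Slc1a3 (uc007vey.2, chromosome 15, 8584124 to 8660764, minus strand) had 14447, 16565, 13208 and 12352 normalized counts in bigenic cortex and 15571, 17337, 16942 and 15985 in nontransgenic cortex. The second bigenic mouse lay within the control range and the other 3 lay below it. Slc1a3 had means of 14143 ± 1829 and 16459 ± 820 (SD, n = 4 each) and a log2(fold change) of -0.23 (standard error 0.095, 95% confidence interval -0.44 to -0.01), which did not pass the threshold (limma adjusted p-value = 0.0879). Without the second bigenic mouse it was -0.305, with an adjusted p-value of 0.00408. The log2 ratio of Slc1a2 to Slc1a3 lay between 2.25 and 2.94 in bigenic cortex and between 2.65 and 2.77 in nontransgenic cortex, with a difference of -0.025 between the means (exact two-sided permutation test, p = 0.943, adjusted over the 6 ratios 0.943). The bigenic mice spread over both sides of the controls in this ratio, so 4 mice do not fix it closely.

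Other astrocyte genes were read beside these changes, with 15.4% of all genes called lower and 20.5% called higher. Of 16 astrocyte markers that are not among the 8 genes, 4 were significantly lower (Gja1, Aqp4, Aldh1l1 and Mlc1), none was significantly higher and 12 did not pass. Their log2(fold changes) ran from -0.63 to 0.19 with a median of -0.21, a range that holds those of Slc6a11, Glul, Slc1a2 and Slc1a3. The markers summed to between 45650 and 53535 normalized counts in bigenic cortex and to between 53002 and 56858 in nontransgenic cortex, and these sums overlapped. Gfap, the intermediate filament of reactive astrocytes, was at 0.04 on the log2 scale (limma adjusted p-value = 0.863). The part of astrocyte number in the lower transporter values was not tested. The genes most like Slc6a11 over the 8 mice were Cdon (Pearson r = 0.995) and Tial1 (0.993), those most like Glul were Plekhb1 (0.991) and Mrpl17 (0.989), and those most like Slc1a2 were Megf10 (0.992), an astrocyte phagocytic receptor, and Ntan1 (0.990).

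Slc1a1 and Slc38a1 carry glutamate and glutamine into neurons. Slc1a1 (uc008hcm.1, chromosome 19, 28909539 to 28988450, plus strand) had 2654, 2566, 3136 and 3126 normalized counts in bigenic cortex and 3471, 3048, 3030 and 3226 in nontransgenic cortex. The groups overlapped, with the first and second bigenic mice below the controls. Slc1a1 had a log2(fold change) of -0.16 (standard error 0.09, 95% confidence interval -0.36 to 0.05, limma adjusted p-value = 0.202), and it was called in none of the 15 alternatives. Its exons overlap 4430402I18Rik on the opposite strand. The log2 ratio of Slc1a1 to Slc1a2 differed by 0.09 between the groups (exact two-sided permutation test, p = 0.286, adjusted over the 6 ratios 0.377).

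Slc38a1 (uc007xki.2, chromosome 15, 96401849 to 96473344, minus strand) was the only one of the 8 to rise significantly. It had 5012, 5960, 6197 and 6431 normalized counts in bigenic cortex and 4759, 4465, 4420 and 4457 in nontransgenic cortex. All 4 bigenic mice were above all 4 nontransgenic mice, the first by the least. Its means were 5900 ± 622 and 4525 ± 157 (SD, n = 4 each), and the log2(fold change) was 0.38 (standard error 0.09, 95% confidence interval 0.18 to 0.57, limma adjusted p-value = 0.00841), or 29.9% higher, and the call held in all 15 alternatives. The log2 ratio of Slc38a1 to Slc38a3, the carrier that releases glutamine from astrocytes, was 2.958, 3.155, 3.287 and 3.327 in bigenic cortex and 2.795, 2.516, 2.612 and 2.762 in nontransgenic cortex. It was higher in every bigenic mouse, by 0.51 on average (exact two-sided permutation test, p = 0.0286, adjusted over the 6 ratios 0.0571). The adjusted value did not pass the threshold. Most like Slc38a1 over the 8 mice were Slc35e2 (Pearson r = 0.986) and Srgap3 (also 0.986).

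**Figure D2:**
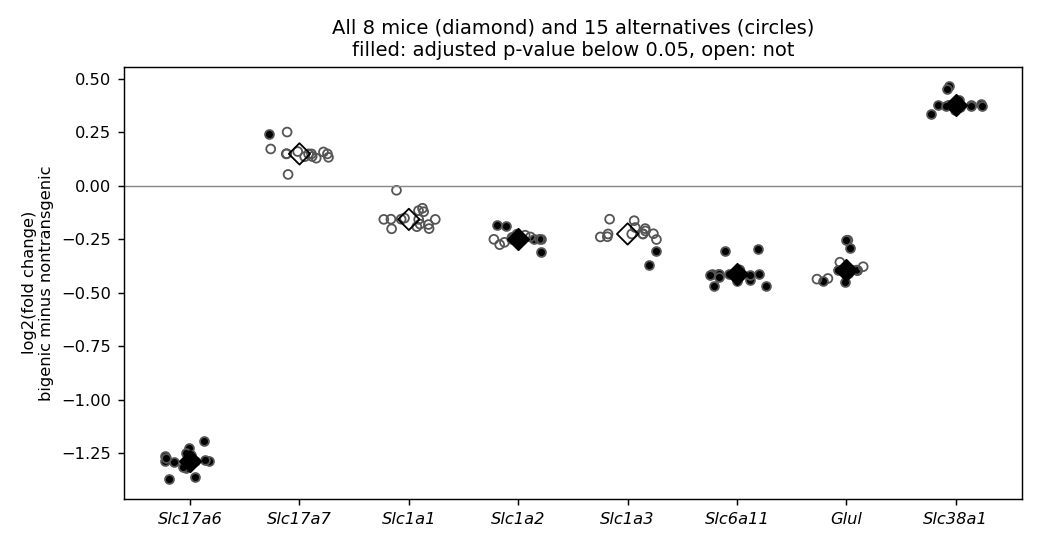
The log2(fold change) of each of the 8 genes with all 8 mice (diamonds) and in 15 alternatives (circles), 8 of which leave out 1 mouse. Filled symbols have an adjusted p-value below 0.05. Slc17a6 and Slc38a1 are filled throughout, while Glul is filled in 7 and Slc1a2 in 5 of the 15.

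Levels were compared between genes only per kilobase of annotated exon, since longer transcripts collect more reads. In the nontransgenic mice Slc1a2 had 8119 ± 318 (SD, n = 4) normalized counts per kb, followed by Glul (7328 ± 534), Slc17a7 (4480 ± 186), Slc1a3 (1928 ± 96), Slc38a1 (539 ± 19), Slc1a1 (518 ± 33), Slc6a11 (516 ± 16) and Slc17a6 (188 ± 19). The ranges of Slc1a2 and Glul overlapped, as did those of Slc38a1, Slc1a1 and Slc6a11, so the order within these groups is not fixed by 4 mice. The bigenic means came in the same order. Per kb, the mean of Slc17a7 was 23.8 times that of Slc17a6 in the nontransgenic mice and 64.9 times in the bigenic mice. The exon lengths were taken from the annotation and may differ from the transcripts made in cortex.

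**Figure D3:**
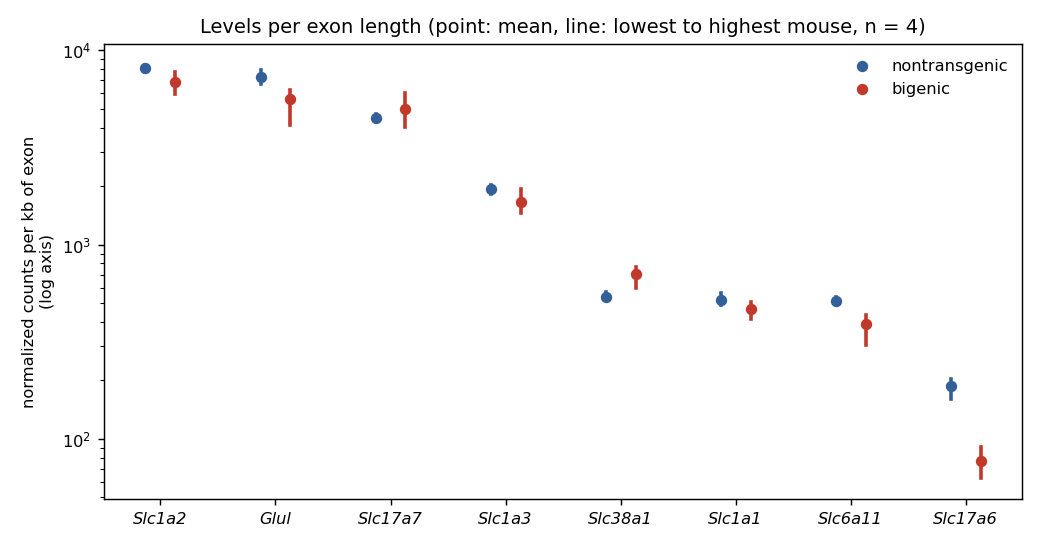
Mean normalized counts per kb of exon for each gene on a log axis, with a line from the lowest to the highest mouse (n = 4 per group, nontransgenic in blue, bigenic in red). Slc1a2 and Glul are at the top and Slc17a6 is at the bottom in both groups, with the widest gap between the groups in Slc17a6.

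The other genes of the pathway were taken from a list of 41, of which 30 were measured. Of the 30, 6 were significantly higher, 8 were significantly lower and 16 did not pass, beside 20.5% and 15.4% of all genes. The median log2(fold change) was -0.08. In 13 of the 30 the groups did not overlap, near the share of 39.0% over all genes.

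Enzymes of glutamate metabolism were changed in both directions. Gls2, a mitochondrial enzyme that makes glutamate from glutamine, was higher by 0.37 on the log2 scale (limma adjusted p-value = 0.0137), with 571 ± 38 (SD, n = 4) against 442 ± 44 (SD, n = 4) normalized counts. Pcx, the pyruvate carboxylase with which astrocytes make new glutamate, had 1980, 2598, 1883 and 2253 normalized counts in bigenic cortex and 1071, 1062, 1052 and 1137 in nontransgenic cortex. It was higher in every bigenic mouse, by 1.0 on the log2 scale (limma adjusted p-value = 0.000124). The mitochondrial aspartate aminotransferase Got2 was higher by 0.46, and the cytosolic Got1 fell by 0.32 (limma adjusted p-values of 0.00265 and 0.00815). Aldh5a1, which oxidizes succinic semialdehyde from GABA, fell by 0.37 (limma adjusted p-value = 0.00651). Glud1, Gpt, Gpt2, Prodh, Aldh4a1, Aldh18a1 and Abat did not pass. Among the mitochondrial carriers, Slc25a18, an astrocytic glutamate carrier, fell by 0.50 (limma adjusted p-value = 0.00722), and Slc25a12 and Slc25a22 did not pass.

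The amino acid transporters outside the 8 genes included the largest rise among the transporters of the list. Slc1a4 (ASCT1), a relative of the glutamate transporters that carries serine and alanine, had 2729, 2502, 2761 and 2962 normalized counts in bigenic cortex and 1456, 1566, 1430 and 1374 in nontransgenic cortex. The groups were far apart and differed by 0.91 on the log2 scale (limma adjusted p-value = 4.78e-05). The lysosomal glutamine transporter Slc38a7 was higher by 0.71 (limma adjusted p-value = 0.000496), and Slc3a2, the heavy chain of several amino acid exchangers, by 0.47 (limma adjusted p-value = 0.0122). Slc7a11, the light chain of the cystine and glutamate exchanger, fell by 0.53 (limma adjusted p-value = 0.0387) with overlapping groups. It was not called without the first bigenic mouse or without the first, the second or the third nontransgenic mouse (0.0747 to 0.105). Slc38a2, the neuronal relative of Slc38a1, was at 0.25 on the log2 scale (limma adjusted p-value = 0.257) and at 0.445 without the second bigenic mouse (0.000575). Slc38a3 was at -0.13 (limma adjusted p-value = 0.207). Slc1a5, Slc1a6, Slc1a7, Slc38a4, Slc38a5, Slc38a6, Slc6a12 and Slc6a13 were not among the genes with a symbol.

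On the GABA side, Gad1, the GABA-synthesizing enzyme, fell by 0.19 (limma adjusted p-value = 0.0453) and was called in 6 of the 15 alternatives, losing the call without the third or the fourth bigenic mouse or any of the nontransgenic mice (0.0727 to 0.12). Gad2 was at -0.32 (limma adjusted p-value = 0.189). Beside these, 3 of 10 measured rows of inhibitory neuron markers were lower (Sst, Cck and 1 of 2 rows of Dlx1) and none was higher. The other 7 did not pass, and 3 of the 10 had a positive log2(fold change). Over all genes, 15.4% were called lower. The markers summed to between 9799 and 11921 normalized counts in bigenic cortex and to between 12925 and 14079 in nontransgenic cortex. The largest parts of these sums were Sst, with means of 2510.5 in bigenic and 3462.5 in nontransgenic cortex, and Cck, with 3379.2 and 4699.5. The sums of the 2 groups would overlap without Cck. In 3 of the 10 rows, those of Sst, Cck and the lower Dlx1 row, the groups did not overlap, beside 39.0% of all genes. The part of inhibitory neuron number in these values was not tested. Among the genes for coupled ion handling or transporter regulation, the sodium pump subunit Atp1b2 fell by 0.39 (limma adjusted p-value = 0.00137). Kcnj10 and Arl6ip5, a regulator of Slc1a1, did not pass.

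**Figure D4:**
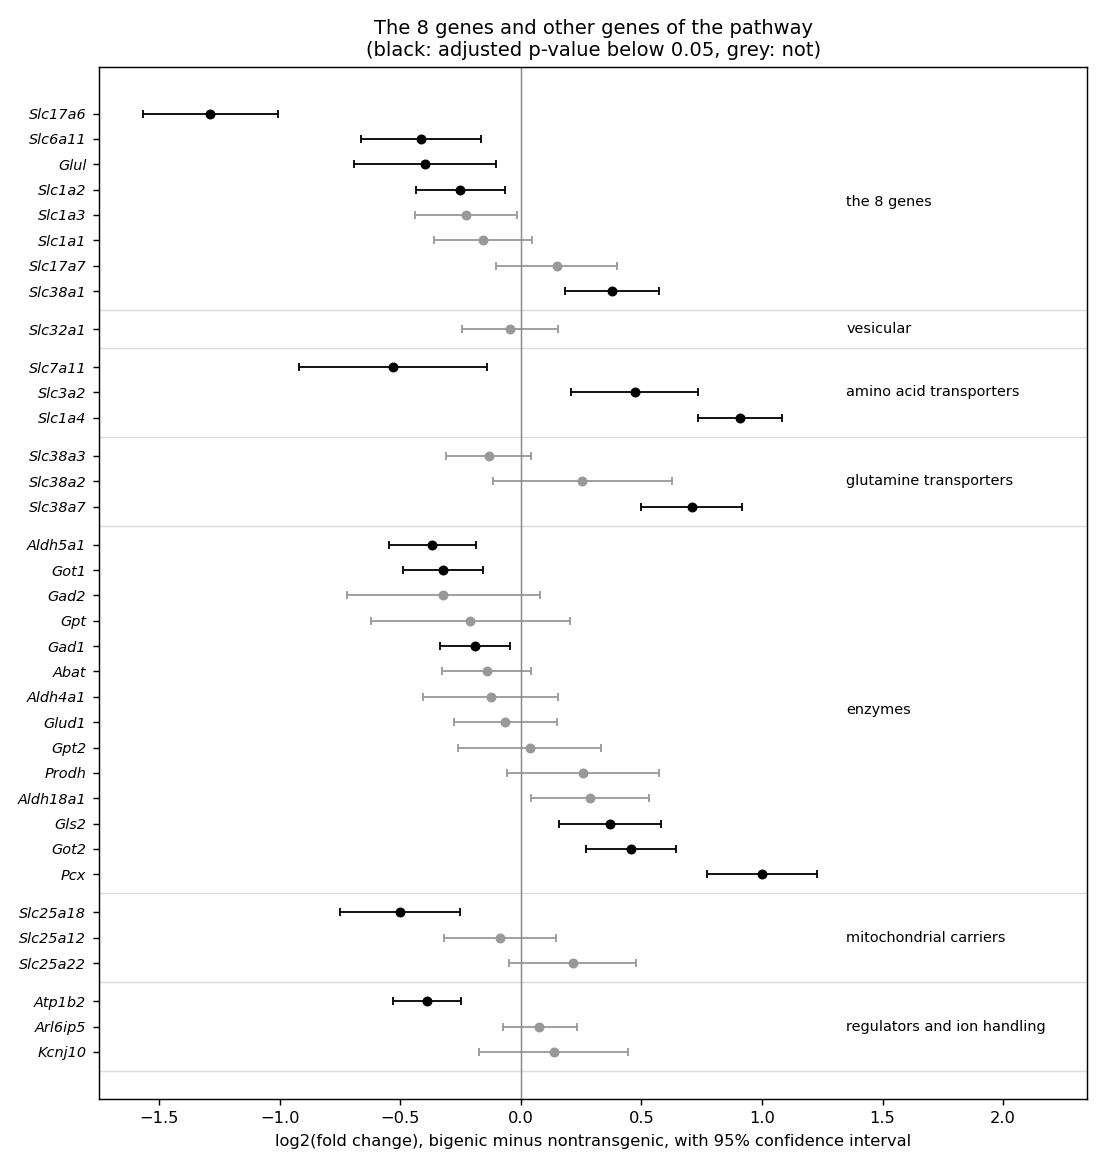
The log2(fold change) of the 8 genes and of 27 other measured genes of the pathway, by role, with 95% confidence intervals from limma. Black points have an adjusted p-value below 0.05. Slc17a6 lies farthest to the left, and Pcx, Slc1a4 and Slc38a7 farthest to the right.

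**Figure D5:**
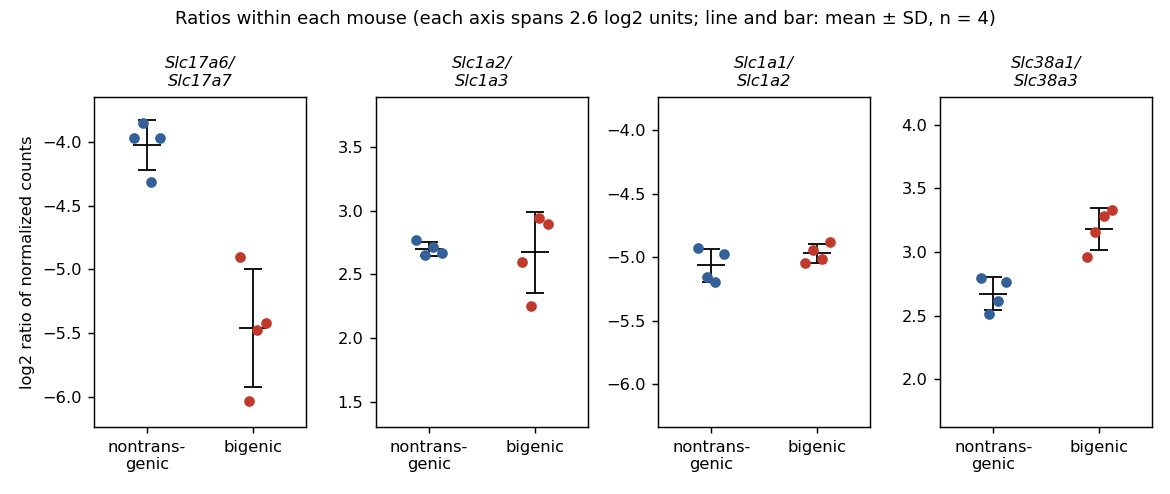
The log2 ratio of 4 pairs of transcripts within each mouse, with the mean ± SD of 4 mice per group in black and the same span of log2 units on every axis. The bigenic mice (red) are apart from the nontransgenic mice (blue) for Slc17a6/Slc17a7 and Slc38a1/Slc38a3 and overlap them for Slc1a2/Slc1a3 and Slc1a1/Slc1a2.

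Markers of the remaining cell types were read on the same scale, beside 20.5% of all genes called higher and 15.4% called lower. Among excitatory neuron markers, 2 of 11 were lower (Camk2a and Nrgn, with log2(fold changes) of -0.88 and -0.76) and 1 was higher. Of 7 pan-neuronal markers, 3 were lower (Syt1, Snap25 and Stmn2) and 1 was higher (Rbfox3), and their sums overlapped between the groups. The log2(fold change) was positive in 4 of these 7, with a median of 0.20. Of 9 microglial markers 5 were lower and none higher, with Cx3cr1, P2ry12 and Csf1r first. For oligodendrocytes 1 of 10 was higher (Mobp), for endothelium 1 of 7 was lower (Flt1), and for striatum 1 of 9 was lower (Penk). All 4 measured choroid plexus markers were higher.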

How the data were processed

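Poly(A)+ RNA of the right cortex was sequenced for 4 mice per group. The authors trimmed reads with cutadapt, mapped them to mm9 with Bowtie 0.12.7, kept unique matches, counted exon reads with bedtools and summed them into genes. The deposited signal is a normalized count, scaled per mouse and rounded, so raw-count tests were not run. What 1 read is worth was estimated from the whole numbers each column skips or repeats. The authors' DESeq2 results table was used for symbols and mean signal (row means within 0.985 to 1.02 of it), and its fold changes, errors, p-values, adjusted p-values and q-values were not used. It gave symbols for 10601 of the 28662 transcripts. A listed gene not counted as measured lacked a symbol there, and its counts were not looked up.

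Genes that reached 10 RPM of the column sum in any mouse (10588) were compared as log2(normalized count + 1), a scale that understates changes of low genes, with limma 3.58.1 (trend) in R 4.3.3, Benjamini-Hochberg adjustment and a threshold of 0.05, and the fit was tested on simulated data. For the 6 ratios all 70 arrangements of the mice were enumerated in an exact two-sided permutation test (Python 3.11.15, scipy 1.17.1). Positions, exon lengths and TG runs came from the GENCODE annotation and genome of the same build (96.2% of genes tested were found by symbol). Alternatives were pseudocounts of 0.1 and 10, the threshold in every mouse or no filter, equal totals, quantile normalization, array weights and each mouse left out. Counting is not stated to use strand.

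The 8 genes, lists and ratios were chosen with earlier results of these data known. Genes named are the 8, the called pathway genes, other transporters of the same families, genes of the ratios, up to 3 markers per list, and the 2 genes most correlated with each called gene. Any further gene was picked with its values in view. Some listed genes, and 2 of the 6 ratios, are not reported here. The sources used here name no batch.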

Additional observations from a re-analysis of the deposited data

Results flagged for a closer look

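Among 88 sets of 4 values (each of the 8 genes, the 30 pathway genes and the 6 ratios, in each group), 5 held a mouse far from the other 3, where the gap, as a share of the range, passed Dixon's critical value for 4 samples. Chance gives this in about 1 set in 20. In the second bigenic mouse, Glul was low at 13718 normalized counts, against 20013 to 20746 in the other 3, and Glud1 and Gpt were high at 5189 and 267. In the nontransgenic mice, the first was high for Slc38a1 at 4759 and the third was low for Slc38a2 at 3140.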

How the results depend on the processing

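No paired analysis was possible because the columns of the table carry no replicate number. With all 8 mice 5 of the 8 genes were called, 4 lower and 1 higher. This count was 3 without a filter and with totals made equal, with 2 lower in each, and quantile normalization gave 2 lower and 2 higher. Leaving out each mouse gave 2 to 6 called, 1 to 5 lower and 1 higher. By gene these fits gave log2(fold changes) of -0.31 to -0.19 for Slc1a2, -0.305 to -0.16 for Slc1a3, -0.47 to -0.30 for Slc6a11 and -0.45 to -0.25 for Glul. Slc1a2 was at -0.25 but not called without a filter (adjusted p-value = 0.175), with the threshold in every mouse (0.0582) and with equal totals (0.0565), and at -0.23 after quantile normalization (0.0894). Glul was not called at -0.40 without a filter (0.0664), at -0.395 with equal totals (0.0619) and at -0.255 after quantile normalization (0.243). Slc17a7 reached 0.24 and the threshold after quantile normalization (0.0483), and Slc1a3 reached -0.37 with array weights (5.46e-05). Array weights, which gave the second bigenic mouse the lowest weight, called 22 of the 30 pathway genes, 10 of them higher, and 6455 genes in all. Leaving out mice gave 11 to 17 pathway genes, with 5 to 10 lower (5 without the first, the second or the third nontransgenic mouse), and a ratio difference of 0.46 to 0.59 for Slc38a1 to Slc38a3. Gpt could not be tested with the threshold in every mouse. Among the 8 genes, the pathway genes and the 4 ratios, no called result reversed its direction in the alternatives run. Marker genes and Tardbp were not followed through them. The causes were not tested, beyond fewer mice or other numbers of genes in the fit.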
